A study of Mus musculus with 8 samples.

Results

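The growth hormone and IGF1 axis was followed through 10 genes in the livers of db/db mice: the growth hormone receptor Ghr, the transcription factors Stat5a and Stat5b, the feedback gene Socs2, the hormone gene Igf1, the carrier gene Igfals, and the IGF binding protein genes Igfbp1, Igfbp2, Igfbp3 and Igfbp4. The genes were chosen by their textbook roles in the axis, with earlier results of these data known. All 10 are among the 21532 genes of the deposited table, and each has a mean of at least 10 normalized counts over the mice, as do 15989 genes of the table.

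Growth hormone from the pituitary binds its receptor on hepatocytes, the receptor-bound kinase JAK2 phosphorylates STAT5, and STAT5 enters the nucleus and raises transcription of Igf1, Igfals and Socs2. IGF1 made by the liver leaves it for the blood, where most of it travels in a complex with IGFBP3 and the acid-labile subunit, which Igfals encodes. SOCS2 acts back on the receptor and dampens its signal. Insulin also enters the axis: it supports the liver's response to growth hormone and represses Igfbp1, which fasting raises.

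The comparison asked how expression of these genes differed in diabetic livers between treatment with an ERα-derived peptide and treatment with a control peptide. All mice were males of the db/db genotype, a mutation of the leptin receptor that leads to obesity and diabetes, and the study puts its mice on the C57B/6J background. From 8 weeks of age, 4 mice received control peptide and 4 received AF1 peptide, which was made synthetically with a cell-penetrating TAT tag, at 5 mg/kg body weight by retro-orbital injection, 2 times per week for 5 weeks. RNA came from frozen whole liver, with 1 library per mouse, and no group without db/db or without injection is among the samples. The make-up of the control peptide and the feeding state of the mice at collection are not given in the sources used here.

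The libraries held 35260283 to 45117528 reads in control mice and 23031880 to 43978158 reads in AF1 peptide-treated mice. Hepatocyte markers were abundant in every library, 5 listed pancreas genes were not analysed here, and 1 of 4 listed fat genes, Cidec, was in the table. The library of AF1 peptide replicate 1 stood apart from the others. It was the highest of the 8 in 25.9% of the tested genes and the lowest in 23.4%. Its summed Kupffer cell markers were 2283 normalized counts against 5142 to 6450 in the other 7 libraries. Its Cidec level was 243 against 3542 to 4768. The summed hepatocyte markers were 1620477 against 2057159 to 2481521, a sum made mostly of Alb (1224160 in this library). Alb, Apoa1 and Ttr were at their lowest of the 8 libraries in it, while Cps1 and Serpina1a were at their highest. Cps1 had 34576 against 5979 to 13727, and Serpina1a had 120153 against 42970 to 71942. The results of the 10 axis genes are therefore given with and without this mouse, and those of the pathway genes where leaving it out changed a call or moved a named value by over 1.5 times. In whole liver, fewer cells of a type and less RNA per cell cannot be told apart.

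Compared per kilobase of exon, the axis genes covered a wide range of mRNA expression levels. Igfbp4, which encodes a small IGF binding protein, was the most abundant with a mean of 4760 normalized counts per kilobase over the 8 mice, followed by Igf1 with 1083 and Ghr with 621. Igfbp3 (319), Igfals (310), Igfbp1 (296) and Igfbp2 (199) followed, and then Stat5b with 170, Stat5a with 71.1 and Socs2 with 31.0 normalized counts per kilobase. Igfbp4 was above Igf1, Igf1 above Ghr, and Ghr above Igfbp3 in 8 of 8 mice, and so was Stat5b above Stat5a and Stat5a above Socs2. The middle of the order was not separated: Igfbp3 was above Igfals in 6 mice, Igfals above Igfbp1 in 5, Igfbp1 above Igfbp2 in 6 and Igfbp2 above Stat5b in 5. Exon lengths were taken from the GENCODE M21 annotation, since the annotation used for counting is not given in the sources used here.

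**Figure D1:**
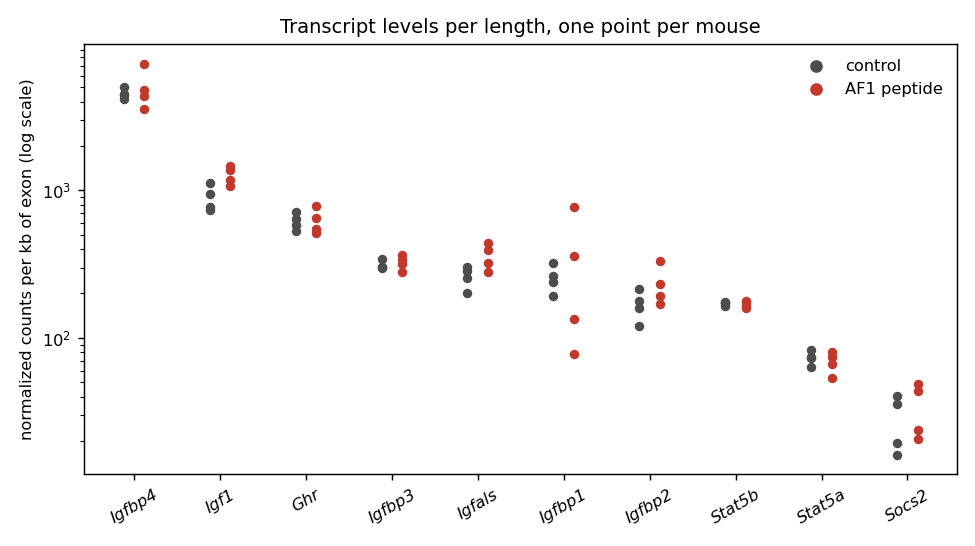
Normalized counts per kilobase of exon on a log axis for the 10 genes, ordered by their mean over all mice, with grey points for the 4 control mice and red points for the 4 AF1 peptide-treated mice. Igfbp4 is at the top with a mean of 4760 and Socs2 at the bottom with 31.0, and the points of Igfbp1 in AF1 peptide-treated mice spread most widely.

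Igf1 and Igfals, which encode the liver's circulating growth factor and its carrier, were the axis genes called higher in AF1 peptide-treated livers. Called means an unadjusted limma p under 0.05 together with more than 1.3-fold change. By this rule 2 of the 10 genes were higher and 0 were lower, against 1.79% of all tested genes called higher and 1.9% called lower. No gene of the table had a Benjamini-Hochberg adjusted limma p under 0.05 (0 genes, with 990 genes or 6.19% at an unadjusted p under 0.05), and the smallest adjusted p was 0.763. DESeq2 gave 3 genes with an adjusted p under 0.05 and edgeR 0. The median log2 fold change of the 10 genes was 0.08, and that of all tested genes was -0.0083. In 0 of the 10 genes did the 4 AF1 peptide-treated mice lie wholly above or below the 4 control mice, an outcome seen in 2.05% of all tested genes for above and in 1.85% for below. The exact permutation test of the mean log2 levels, added after seeing the data, did not pass 0.05 for any of the 10 genes. Levels are given in normalized counts, the reads of a gene divided by 1 size factor per library, and log2 fold changes are on the log2(normalized count + 1) scale, which understates the change of low genes.

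**Figure D2:**
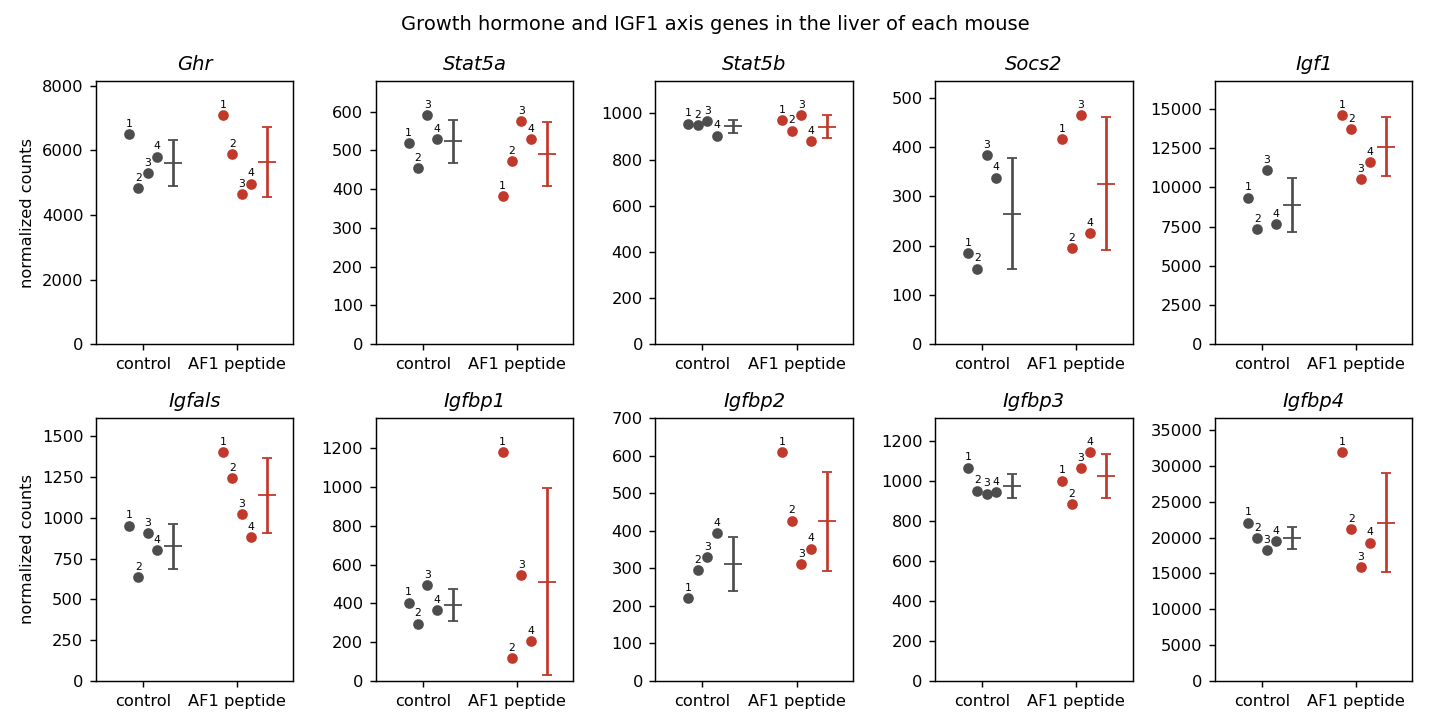
Normalized counts of each axis gene in each mouse, on linear axes from 0, with replicate numbers beside the points, grey for control and red for AF1 peptide, and the mean ± SD of each group to their right. Igf1 and Igfals have 3 of 4 AF1 peptide-treated mice above every control mouse, and Igfbp1 has AF1 peptide-treated mice on both sides of the control mice.

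The mRNA levels of the receptor and of the transcription factors that carry its signal showed no difference beyond the spread between mice. Ghr, the growth hormone receptor, had 6500, 4835, 5295 and 5805 normalized counts in control replicates 1 to 4 and 7078, 5881, 4646 and 4965 in AF1 peptide replicates 1 to 4. The AF1 peptide-treated mice lay on both sides of the control range. Mean levels were 5609 ± 714 in control and 5642 ± 1091 in AF1 peptide-treated livers (SD, n = 4 each), with a log2 fold change of -0.0022 (SE 0.15, 95% interval -0.33 to 0.33, exact permutation p = 1, limma adjusted p = 0.998). Stat5b, the main STAT5 form of hepatocytes, was the steadiest gene of the axis. Its level was 904 to 967 normalized counts in control mice and 881 to 992 in AF1 peptide-treated mice, and the log2 fold change was -0.0034 (SE 0.084, interval -0.19 to 0.18, exact permutation p = 0.943, limma adjusted p = 0.995). The highest mouse exceeded the lowest by 1.13-fold, and the SD of its log2 level in control mice was larger than that of 1.71% of tested genes.

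Stat5a, the close relative of Stat5b, was likewise within the spread. It ranged from 455 to 590 normalized counts in control mice and from 383 to 576 after AF1 peptide, where replicate 1 was the lowest of all 8. The log2 fold change was -0.10 (SE 0.14, interval -0.42 to 0.21, exact permutation p = 0.571, limma adjusted p = 0.885) and 0.01 without AF1 peptide replicate 1. Both STAT5 genes share sequence: 8.21% of the 50-base words of Stat5a transcripts also occur in Stat5b and 10.98% of those of Stat5b in Stat5a, so reads from such stretches may have been split between them. Stat5a also overlaps exons of Stat3 on the opposite strand by 72 bases, 1.01% of its exon length, and the use of strand in counting is not given in the sources used here.

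Socs2, the feedback inhibitor of the receptor and a STAT5 target gene, varied widely within both groups. Control mice had 185, 154, 384 and 338 normalized counts, and AF1 peptide-treated mice had 417, 195, 465 and 226. In each group 2 mice were low and 2 were high, and the groups overlapped. The log2 fold change was 0.30 with an SE of 0.35 and an interval of -0.48 to 1.08 (exact permutation p = 0.486, limma adjusted p = 0.862), and 0.15 without AF1 peptide replicate 1. The SD of its log2 level was 0.64 in control mice, larger than that of 95.6% of tested genes. Of the 50-base words of Socs2 transcripts, 4.19% also occur in the transcripts of Gm9847.

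Igf1, the gene of insulin-like growth factor 1, was called higher in AF1 peptide-treated livers by the limma rule. Its level was 9342, 7315, 11114 and 7678 normalized counts in control replicates 1 to 4, and 14584, 13697, 10530 and 11586 in AF1 peptide replicates 1 to 4. In Igf1, 3 AF1 peptide-treated mice were above every control mouse, and AF1 peptide replicate 3 lay below control replicate 3, the highest control mouse. The mean was 8862 ± 1742 in control and 12599 ± 1866 in AF1 peptide-treated livers (SD, n = 4 each). By limma this was a 1.43-fold difference (log2 fold change 0.52, SE 0.16, 95% interval 0.16 to 0.87, limma adjusted p = 0.763). Without AF1 peptide replicate 1 the log2 fold change was 0.44 and Igf1 was called among the 2.86% of tested genes then called higher. It was called in 12 of 12 other settings of limma, edgeR and DESeq2 and in 8 of 8 fits that left out 1 mouse, while its smallest adjusted p over these was 0.448. The exact permutation test of the mean log2 levels gave p = 0.0571, where 0.0286 is the smallest p that 4 mice against 4 can give. In edgeR and DESeq2, which called 2.15% and 2.16% of all tested genes higher, Igf1 was called too. With at least 7428 reads per library, the counting error of a single value was at most 1.16%.

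Igfals, the gene of the acid-labile subunit, was also called higher by that rule, with a less stable call. Control mice had 953, 638, 906 and 804 normalized counts, and AF1 peptide-treated mice had 1403, 1244, 1025 and 882. Again 3 AF1 peptide-treated mice were above all control mice, and replicate 4 lay inside the control range. The mean was 825 ± 139 in control and 1138 ± 231 in AF1 peptide-treated livers (SD, n = 4 each), a 1.37-fold difference (log2 fold change 0.46, SE 0.17, interval 0.09 to 0.83, limma adjusted p = 0.763). Without AF1 peptide replicate 1 the difference was 1.27-fold, under the fold threshold. The exact permutation p was 0.0857. The call was also lost, with an unadjusted p above the threshold, without AF1 peptide replicate 2 (1.33-fold), without control replicate 2 (1.27-fold), with libraries scaled to equal totals (1.29-fold) and with each gene's own variance (1.37-fold).

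**Figure D3:**
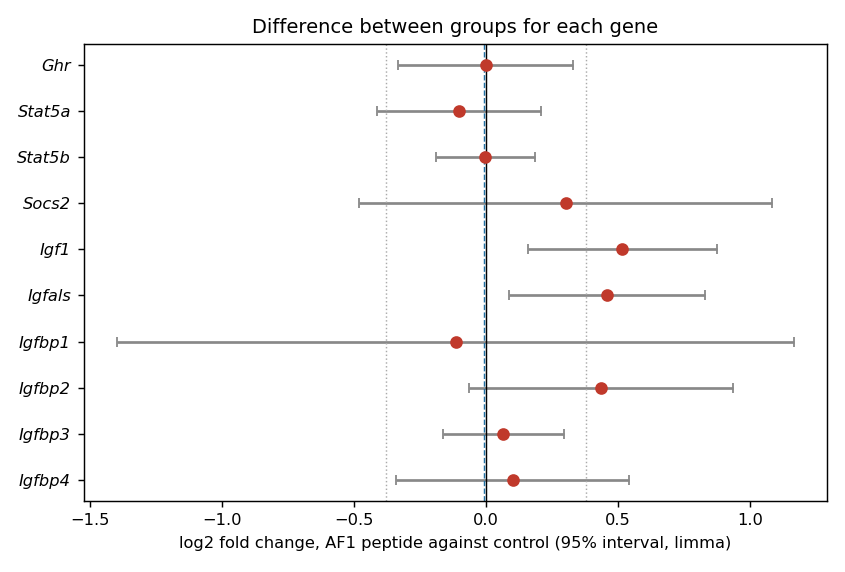
Log2 fold change of each axis gene, AF1 peptide against control, with the 95% interval from limma, a blue dashed line at the median of all tested genes (-0.0083) and grey dotted lines at 1.3-fold in each direction. The intervals of Igf1 (0.16 to 0.87) and Igfals (0.09 to 0.83) lie above 0, and that of Igfbp1 (-1.40 to 1.16) is the widest.

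Igf1 and Igfals varied together from mouse to mouse. Over the 8 mice, Pearson's r of their log2 levels was 0.90 (exact permutation p = 0.0035, adjusted over 8 pairs p = 0.0278) and Spearman's rho was 0.79 (exact permutation p = 0.0279, adjusted p = 0.223). AF1 peptide replicates 1 and 2 were highest in both genes, and control replicate 2 was lowest in both. Within the control mice r was 0.79 and within the AF1 peptide-treated mice it was 0.84, each over 4 mice and without a test. Without the 2 mice farthest from the median Igf1 level, control replicates 2 and 4, r was 0.80 over 6 mice and the test no longer passed (exact permutation p = 0.0667). Without AF1 peptide replicate 1, r was 0.86 (exact permutation p = 0.0139, unadjusted). Adjusted over the 8 pairs, the relation passed 0.05 without control replicate 3 and without AF1 peptide replicate 4, but not without any other mouse, nor with libraries scaled to equal totals. The levels relative to the receptor, a description chosen after the values were seen, differed in the same direction. The log2 ratio of Igfals to Ghr was -2.92 to -2.55 in control and -2.49 to -2.18 in AF1 peptide-treated mice. That of Igf1 to Ghr was 0.40 to 1.07 in control and 1.04 to 1.22 in AF1 peptide-treated mice. The adjusted p of both was 0.143 in the exact permutation test. Ratios of Igf1 to Igfals, of Igf1 to Igfbp3 and of Igfbp1 to Igf1 were also computed and did not pass 0.05. With a log2 fold change of -0.0022 for Ghr, the ratios to Ghr largely repeat the differences of Igf1 and Igfals.

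**Figure D4:**
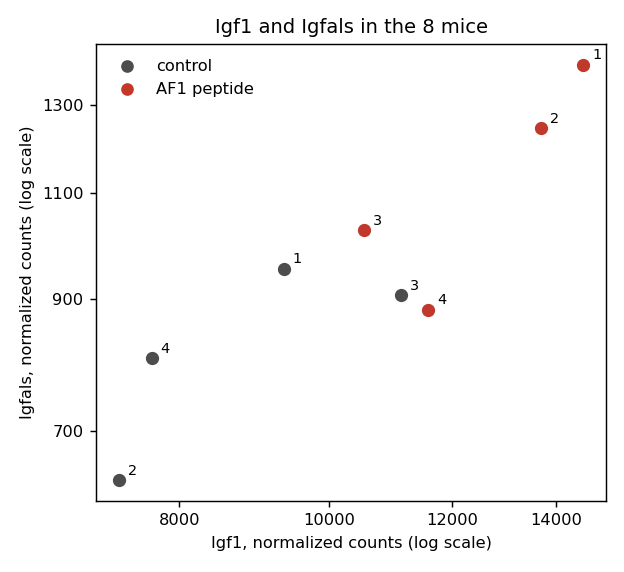
Igf1 against Igfals in each of the 8 mice, both in normalized counts on log axes, with replicate numbers beside the points, grey for control and red for AF1 peptide. The points climb together (r = 0.90 over 8 mice), from control replicate 2 at 7315 and 638 to AF1 peptide replicate 1 at 14584 and 1403.

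The promoter windows of Igf1 and Igfals are shown because these genes moved together. RefSeq windows of GRCm38.p6, from 250 bases before to 50 after each annotated start, were found for 9 of the 10 genes (15 windows), and none was found for Socs2. They were searched on both strands for TTCNNNGAA, the motif that STAT5 binds, and for the forkhead motifs TGTTTAC and TATTTTG, which do not overlap it. Of 32851 windows of this length, 8.30% held TTCNNNGAA, 3.65% held TGTTTAC and 4.36% held TATTTTG. The Igf1 window, at chr10:87860861-87861160 on the plus strand, held no match. The Igfals windows with a match, at chr17:24877594-24877893 and chr17:24877981-24878280 on the plus strand, held TTCNNNGAA from 236 and from 58 bases before their starts. The second also held TGTTTAC from 242 bases before its start. A further Igfals window, at chr17:24878497-24878796, held no match and is not shown, so Igfals had more windows to search than Igf1. Capitals mark the matches, which are letters in these windows and not measured binding sites.
Igf1: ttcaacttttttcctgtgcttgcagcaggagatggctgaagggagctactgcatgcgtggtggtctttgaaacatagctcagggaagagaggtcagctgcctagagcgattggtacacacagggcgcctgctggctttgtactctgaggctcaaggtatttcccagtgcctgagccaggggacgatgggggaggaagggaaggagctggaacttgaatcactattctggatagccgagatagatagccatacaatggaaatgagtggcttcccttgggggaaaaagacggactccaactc
Igfals, first window: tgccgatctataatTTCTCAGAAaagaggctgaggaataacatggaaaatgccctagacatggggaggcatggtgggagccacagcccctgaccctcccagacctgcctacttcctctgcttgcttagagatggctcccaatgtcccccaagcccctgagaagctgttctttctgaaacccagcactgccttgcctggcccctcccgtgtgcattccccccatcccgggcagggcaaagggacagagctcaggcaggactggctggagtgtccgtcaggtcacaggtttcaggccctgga
Igfals, second window: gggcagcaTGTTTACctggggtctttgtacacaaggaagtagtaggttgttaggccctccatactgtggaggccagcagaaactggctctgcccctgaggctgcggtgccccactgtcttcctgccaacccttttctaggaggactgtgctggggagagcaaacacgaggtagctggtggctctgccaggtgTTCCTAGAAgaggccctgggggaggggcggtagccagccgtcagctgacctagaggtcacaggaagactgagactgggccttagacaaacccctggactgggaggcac

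Igfbp1, whose product binds IGF1 and whose transcription insulin represses, differed among the AF1 peptide-treated mice rather than between the groups. Control mice had 404, 295, 494 and 367 normalized counts, and AF1 peptide replicates 1 to 4 had 1180, 119, 545 and 204. AF1 peptide replicates 1 and 3 were above every control mouse, and replicates 2 and 4 were below every control mouse. The level was 390 ± 82.6 in control and 512 ± 482 in AF1 peptide-treated livers (SD, n = 4 each), and the highest mouse exceeded the lowest by 9.94-fold. The SD of the log2 level was 1.47 in AF1 peptide-treated mice, larger than that of 99.1% of tested genes in that group, and 0.31 in control mice, larger than that of 74.7%. The difference in spread was not tested. The log2 fold change was -0.12 (SE 0.58, interval -1.40 to 1.16, exact permutation p = 0.914, limma adjusted p = 0.976). Its direction changed with the tool, to 0.39 in DESeq2 and 0.40 in edgeR, and it was -0.69 in limma without AF1 peptide replicate 1. The lowest library held 65 reads of Igfbp1, a counting error of 12.4%.

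The Igfbp1 window is shown because this gene spread most between mice. It lies at chr11:7197537-7197836 on the plus strand of GRCm38.p6 and held TATTTTG, in capitals, from 97 bases before the start, and neither of the other motifs.
Igfbp1: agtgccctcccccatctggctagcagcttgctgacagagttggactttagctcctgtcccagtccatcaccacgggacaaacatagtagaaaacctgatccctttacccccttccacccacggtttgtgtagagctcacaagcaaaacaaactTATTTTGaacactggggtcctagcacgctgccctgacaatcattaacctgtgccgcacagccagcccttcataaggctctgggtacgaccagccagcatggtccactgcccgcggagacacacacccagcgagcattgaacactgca

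The other binding protein genes were not called in the main fit. Igfbp2 nonetheless had a log2 fold change near the 0.46 of the called Igfals. The unadjusted limma p was 0.081 for Igfbp2 and 0.021 for Igfals, and the limma adjusted p was 0.763 for both. Igfbp2, which encodes a binding protein that rises in fasting, had 222, 295, 331 and 394 normalized counts in control mice and 610, 427, 312 and 353 in AF1 peptide-treated mice. AF1 peptide replicates 1 and 2 were above all control mice, and replicates 3 and 4 lay within the control range. Its log2 fold change was 0.44 (SE 0.23, interval -0.06 to 0.94, exact permutation p = 0.171, limma adjusted p = 0.763), and 0.25 without AF1 peptide replicate 1. It passed the rule in 2 of the 8 fits that left out 1 mouse, without AF1 peptide replicate 3 (1.48-fold) and without control replicate 4 (1.48-fold).

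Igfbp3, the gene of the binding protein that joins IGF1 and the acid-labile subunit in the blood, stayed in a narrow range. In whole liver it is made mostly by cells other than hepatocytes. Its level was 1065, 950, 935 and 944 normalized counts in control mice and 999, 882, 1063 and 1142 in AF1 peptide-treated mice, and the groups overlapped. Its log2 fold change was 0.07 (SE 0.10, interval -0.16 to 0.29, exact permutation p = 0.571, limma adjusted p = 0.905). Across the 8 mice no relation of its log2 level was shown to that of Igf1 (r = 0.03, exact permutation p = 0.933) or of Igfals (r = -0.04, exact permutation p = 0.926), with adjusted p of 0.933 for both in the permutation test.

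Igfbp4, the most abundant gene of the axis per length, stood out in a single mouse. Control mice had 22095, 19889, 18285 and 19557 normalized counts, and AF1 peptide-treated mice had 31952, 21231, 15835 and 19318. Replicate 1 was far above the control mice and replicate 3 was below them. The fitted log2 fold change was 0.10 (SE 0.20, interval -0.34 to 0.54, exact permutation p = 0.771, limma adjusted p = 0.927), and -0.09 without AF1 peptide replicate 1.

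AF1 peptide replicate 1 was the highest of the 8 mice in 6 of the 10 axis genes (Ghr, Igf1, Igfals, Igfbp1, Igfbp2 and Igfbp4) and the lowest in 1, Stat5a. The part in the axis values of this library's lower Cidec level and lower Kupffer cell and hepatocyte sums was not tested. Without it, the log2 fold changes of Igf1 and Igfals were 0.44 and 0.35, and those of Ghr, Stat5b and Igfbp3 were -0.12, -0.02 and 0.07.

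Receptor, feedback gene and ligand were not shown to vary together. Across the 8 mice, r was 0.38 between Ghr and Igf1 (exact permutation p = 0.344), 0.05 between Ghr and Socs2 (exact permutation p = 0.901) and 0.32 between Socs2 and Igf1 (exact permutation p = 0.416). For Igfbp1 it was 0.25 with Igfbp2 (exact permutation p = 0.567) and 0.09 with Igf1 (exact permutation p = 0.826). In the permutation test the adjusted p of each of these 5 pairs was 0.933. Within the 4 AF1 peptide-treated mice r between Ghr and Igf1 was 0.97, and within the 4 control mice it was 0.25. Without AF1 peptide replicate 1, r between Ghr and Igf1 was 0.04.

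Some genes outside the axis followed Igf1 and Igfbp1 closely over the 8 mice. They are a description with no test, since the points share the study's 2 groups. They were also picked for the highest r among all genes with a mean of at least 50 normalized counts. With 8 points, a high r follows in part from that pick, and shared regulation was not tested. The genes most like Igf1 were Adra1b, which encodes an alpha-1 adrenergic receptor (r = 0.98), Phyhd1 (r = 0.97) and 1810021B22Rik (r = 0.97). Adra1b ranged from 2720 to 3444 normalized counts in control and from 3416 to 4053 after AF1 peptide. Those most like Igfbp1 were Stub1, the gene of a ubiquitin ligase (r = 0.98), Foxa3, the gene of a liver forkhead factor (r = 0.97), and Gm30585 (r = 0.96). Their ranges over mice were far narrower than that of Igfbp1. Foxa3 had 505, 268, 420 and 295 normalized counts in AF1 peptide replicates 1 to 4, the same order of mice as Igfbp1, and 325 to 430 in control mice.

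The rest of the pathway was read from 5 lists of other genes, 70 listed and 62 tested. Of these, 2 were called higher and 0 lower, with a median log2 fold change of 0.03, against the 1.79% and 1.9% of all tested genes above. None of the lists held more than 1 called gene. Without AF1 peptide replicate 1, Irs1 (0.70-fold), the gene of an insulin receptor substrate, Cyp3a16 (0.53-fold) and G6pc (0.65-fold), the gene of the glucose-releasing phosphatase, were called lower, against 3.04% of all tested genes.

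**Figure D5:**
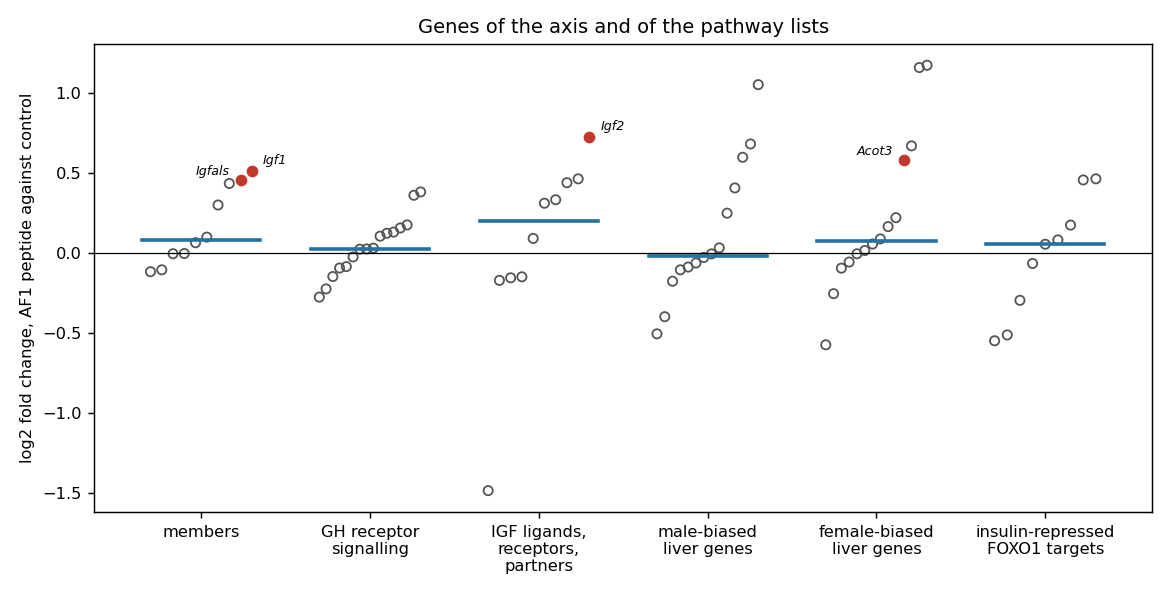
Log2 fold change of every tested gene of the axis and of the 5 pathway lists, AF1 peptide against control, with filled red points for genes called in limma and blue bars at the median of each list. The called genes are Igf1, Igfals, Igf2 and Acot3, all above 0, and the medians lie between -0.02 and 0.20.

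Among 16 tested genes of growth hormone receptor signalling, 0 were called higher and 0 lower, and the median log2 fold change was 0.03. The kinase gene Jak2 had 243 ± 32.6 normalized counts in control and 228 ± 18.1 in AF1 peptide-treated livers (SD, n = 4 each). Cish, a STAT5 target and feedback gene like Socs2, had 190 to 322 normalized counts in control and 188 to 422 in AF1 peptide-treated mice. The smallest limma p of this list belonged to Ptpn11, the gene of the phosphatase SHP2, with 804 to 874 normalized counts in control and 616 to 803 in AF1 peptide-treated mice. All 4 of the latter lay below the control mice, as in 1.85% of all tested genes. The log2 fold change was -0.22 (exact permutation p = 0.0286, limma adjusted p = 0.763). Ptpn6, the gene of the phosphatase SHP1, had a log2 fold change of 0.18 (exact permutation p = 0.0571). Sh2b1, the gene of a JAK2 adaptor, had 0.16 (exact permutation p = 0.114), and 0.10 without AF1 peptide replicate 1.

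Among the other IGF ligands, receptors and binding partners, 10 of 15 listed genes were tested, 1 was called higher and 0 lower, and the median log2 fold change was 0.20. The called gene was Igf2, a fetal growth factor that is nearly silent in adult mouse liver. It had 9.89, 13.8, 13.0 and 11.7 normalized counts in control mice and 20.5, 23.7, 23.1 and 15.6 in AF1 peptide-treated mice. The groups did not overlap, and 2.05% of all tested genes likewise had all AF1 peptide-treated mice above the control mice. The log2 fold change was 0.72 (exact permutation p = 0.0286, the smallest that 4 mice against 4 can give, limma adjusted p = 0.763), at a level of 2.87 normalized counts per kilobase against 1083 for Igf1. Its call was lost without AF1 peptide replicate 2, AF1 peptide replicate 3 or control replicate 1 and with equal totals, at 1.56 to 1.59-fold. Igfbp6, the gene of a binding protein that prefers IGF2, had 25.2 ± 15.7 and 9.21 ± 8.09 normalized counts (SD, n = 4 each; log2 fold change -1.49, exact permutation p = 0.171), and the log2 fold change was -0.83 without AF1 peptide replicate 1. It was called lower in DESeq2 (0.37-fold, against 1.71% of all tested genes), with equal totals (0.33-fold), without AF1 peptide replicate 4 (0.25-fold) and without control replicate 4 (0.24-fold). Igf1r, the gene of the IGF1 receptor, had 23.9 ± 3.18 and 30.5 ± 4.86 (log2 fold change 0.33, exact permutation p = 0.0857).

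Growth hormone reaches the male liver in pulses and the female liver more steadily, and this pattern sets the sex bias of many liver genes. Of 14 tested male-biased genes, 0 were called higher and 0 lower, with a median log2 fold change of -0.02. The smallest limma p belonged to Cyp4a12b (log2 fold change 1.05, exact permutation p = 0.229) and Cyp7b1 (0.41, exact permutation p = 0.229), both cytochrome P450 genes, and to Egfr (0.60, exact permutation p = 0.114), the gene of a growth factor receptor. Egfr had 1109 normalized counts in AF1 peptide replicate 1 and 277 to 420 in the other 7 mice, and its log2 fold change was 0.22 without that mouse. Without it, Cyp4a12b had 0.63 and Cyp7b1 0.24. DESeq2 and edgeR called Cyp4a12b (2.55-fold and 2.59-fold) and Egfr (1.69-fold in both) higher. In limma, Cyp4a12b was called without AF1 peptide replicate 2 (2.73-fold) or replicate 3 (2.64-fold), and Egfr without AF1 peptide replicate 3 (1.70-fold) and with a replicate block (1.52-fold). Of 14 tested female-biased genes, 1 was called higher and 0 lower, with a median of 0.07. Acot3, the gene of a peroxisomal acyl-CoA thioesterase, had 1681, 1417, 2149 and 3255 normalized counts in control mice and 2812, 3003, 3687 and 2685 in AF1 peptide-treated mice, and the groups overlapped (log2 fold change 0.58, exact permutation p = 0.114, limma adjusted p = 0.763). The call was lost in edgeR (1.43-fold), with equal totals (1.40-fold), with own variance, and without AF1 peptide replicate 3, control replicate 1 or control replicate 2. Sult3a1, a sulfotransferase gene, had a log2 fold change of 1.18 (exact permutation p = 0.286), and Cyp2b9 had 0.17 (exact permutation p = 0.171). Without control replicate 1, Sult3a1 was called higher (3.69-fold), and without AF1 peptide replicate 3, Cyp2b10 was (1.47-fold). Cux2, the gene of a transcription factor, was called higher in DESeq2 (4.48-fold) and edgeR (4.47-fold), and in limma without AF1 peptide replicate 4 (3.89-fold). It had 4101 normalized counts in AF1 peptide replicate 1 and 117 to 812 in the other 7 mice.

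In these male livers, some genes of the female-biased list were abundant in both groups and others were near the floor. Cyp2a4, Cyp2b9 and Cyp2b13 had means of 7244, 4645 and 4190 normalized counts per kilobase over the 8 mice. By contrast, Cyp3a44 of that list had 10.7 ± 3.99 normalized counts in control and 10.1 ± 4.29 in AF1 peptide-treated livers, and Cyp3a41a had 47.8 ± 14.6 and 47.5 ± 19.0 (SD, n = 4 each). Hsd3b5, a steroid dehydrogenase gene of the male-biased list, had 0 to 1.78 normalized counts per kilobase and did not pass the filter, while Cyp2d9 of the same list had a mean of 2919. These genes, named here after their levels were seen, did not separate the treatment groups, and with no db/+ or wild-type mice the levels have no reference.

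The insulin-repressed FOXO1 targets, which share their regulation by insulin with Igfbp1, numbered 9 tested genes with 0 called higher and 0 lower and a median log2 fold change of 0.06. Sesn3, the gene of a stress-response protein, had 24.8 ± 3.91 and 17.1 ± 2.83 normalized counts (SD, n = 4 each; log2 fold change -0.51, exact permutation p = 0.0571). It was called lower (0.70-fold) in limma without the trend, with own variance and with at least 10 normalized counts in every mouse, and without control replicate 2 (0.65-fold). Trib1, a pseudokinase gene, had a log2 fold change of 0.18 (exact permutation p = 0.0857). Ppargc1a, the gene of a coactivator of gluconeogenesis, had 324, 205, 94.7 and 130 normalized counts in AF1 peptide replicates 1 to 4 and 110 to 130 in control mice (log2 fold change 0.46, exact permutation p = 0.343), and the log2 fold change was 0.15 without AF1 peptide replicate 1. Without AF1 peptide replicate 3 it was called higher (1.66-fold).

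The cells from which the axis mRNA could come were checked with marker lists. Of 8 sinusoidal endothelial markers, 1 had a limma p under 0.05 and was higher (Stab1). In log2 fold change, 6 of the 8 were below 0. Of all tested genes, 6.19% had such a p in either direction, with no fold threshold. The summed endothelial level was 7491 to 8486 normalized counts in control and 7331 to 9506 in AF1 peptide-treated mice. Of 7 stellate cell markers, 1 was lower with such a p (Dcn), while 4 of the 7 had a log2 fold change above 0. Their sums were 8260 to 9792 in control and 7817 to 11536 in AF1 peptide-treated mice. Of 6 Kupffer cell markers, 1 was lower with such a p (Adgre1), and 5 of the 6 had a log2 fold change below 0. Their sums were 5142 to 6450 in control mice and 2283 in AF1 peptide replicate 1. In AF1 peptide replicates 2 to 4 they were 5857, 6020 and 5770, inside the control range. Of 5 hepatocyte markers, 0 were higher and 0 lower by that p. Biliary, lymphocyte and red blood cell lists, with 5, 4 and 5 tested markers, had 0 genes with such a p. Summed red blood cell markers were 34147 to 123375 normalized counts in control and 27111 to 51923 in AF1 peptide-treated mice. The part of these differences in the axis values was not tested.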

How the data were processed

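Liver RNA of 8 mice was sequenced from stranded mRNA libraries, 1 per mouse. According to the labels and methods, the authors trimmed reads with Trim Galore 0.6.7, aligned them to the mouse genome (mm39 in the submitters' processing notes) with HISAT2, used SAMtools 1.17 for sorting and GenomicAlignments for counts per gene. The annotation, the strand setting and the rule for multi-mapped reads are not given in the sources used here. The authors deposited normalized counts: this signal equals the reads of a gene in a mouse divided by 1 size factor per library. Whole reads were recovered from the steps of each library (100% of 172256 values whole within 0.01). Groups and replicate numbers came from the sample labels. Libraries of 1 group were all distinct (chi-square per degree of freedom 14.6 to 312).

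In R 4.3.3, limma 3.58.1 compared log2(normalized count + 1) between the groups (intensity trend, moderated variance) over the 15989 genes with a mean of at least 10 normalized counts, with Benjamini-Hochberg adjustment over all of them. Genes were called at an unadjusted p under 0.05 with more than 1.3-fold change. Libraries of 1 group are called biological replicates in the labels. On simulated counts for AF1 peptide against control (15942 genes), at 2-fold change, limma gave a p under 0.05 to 93.3% of 194 changed genes and to 4.86% of unchanged genes. Smaller changes, like those of Igf1 and Igfals, and a library that stands apart were not simulated. Correlations used exact permutation tests, two-sided, on log2(normalized count + 1). A two-sided exact permutation test of the mean log2 level of each named gene was added after seeing the data. The 10 genes, the pathway and marker lists and the tests were chosen with earlier results of these data known. Named genes were the 10 axis genes, the 3 tested genes with the smallest p of each pathway list, and the 3 genes with a mean of at least 50 normalized counts and the highest r with Igf1 and with Igfbp1. Others were named after their values were seen.

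Same-numbered mice of both groups deviated from their group means with correlations of -0.06 to 0.24 (mean 0.10). Differently numbered mice had -0.27 to 0.14 (mean -0.03). The same-number values were not over 0.1 in every pair, so the numbers were not taken to pair the mice. Whether same-numbered mice shared a batch was not tested, and a replicate block was fitted as an alternative. Alternatives were pseudocounts of 0.5 and 5, other filters, rescaling by TMM factors, to equal totals or to equal totals without 15 mitochondrial genes, no trend in limma, unmoderated variances, a replicate block, recovered reads in DESeq2 1.42.0 and in edgeR 4.0.16, no fold threshold, and each mouse left out in turn. The share of reads in mitochondrial genes was 22.6 to 34.7% in control and 21.1 to 38.2% in AF1 peptide-treated mice. Exon lengths and shared 50-base words came from GENCODE M21, which names 85.9% of the gene symbols of the table. Counting errors cover counting only. No column of sample values was left unused (0 columns). Protein sequences were not used here.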

Additional observations from a re-analysis of the deposited data

Results flagged for a closer look

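Each value here is the gap of the extreme mouse to its nearest neighbour, divided by the range of its group of 4. Of 70 groups tested, 7 were past the 95% critical value of Dixon's test, where chance gives about 1 in 20, or 3.5. Igfbp3 was higher in control replicate 1, at 1065 normalized counts, than in the other control mice, at 935 to 950 (0.882). Among AF1 peptide-treated mice, Egfr was far higher in replicate 1 (0.911). Cyp7b1 was far lower in control replicate 2 (0.897). The summed sinusoidal endothelial markers were higher in control replicate 4, at 8486 normalized counts against 7491 to 7615 in the other control mice (0.875). The summed red blood cell markers were far higher in that mouse (0.882). In AF1 peptide replicate 1, the summed Kupffer cell markers (0.933) and the summed red blood cell markers (0.888) were far lower than in the other AF1 peptide-treated mice. That library accounts for 3 of the 7.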

How the results depend on the processing

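Igf1 kept its direction and its call in every alternative fit of limma, edgeR and DESeq2, but not in the exact permutation test, added after seeing the data, and 0 axis genes were called lower in any. The axis genes called higher numbered 2, and 1 with equal totals and with each gene's own variance, where Igfals dropped out, and 1 to 3 with 1 mouse left out. Of the other pathway genes, 2 were called higher. This was 5 in DESeq2, 4 in edgeR, 1 with at least 10 counts in every mouse, 1 with own variance and 0 with equal totals, and 1 to 4 with 1 mouse left out. The number called lower was 0, and 1 in DESeq2, with at least 10 in every mouse, with equal totals, without the trend and with own variance, and 0 to 3 with 1 mouse left out. The related pairs numbered 1, and 0 with equal totals, and 0 to 1 with 1 mouse left out, being 0 in 6 of those 8 fits. By the exact permutation test with the same fold threshold, 0 axis genes and 1 other pathway gene, Igf2, were called higher. The cause of these changes was not tested.

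Directions that changed were those of small effects and of Igfbp1. Log2 fold changes became 0.0095 (DESeq2) and 0.0056 (edgeR) for Ghr, 0.00072 (DESeq2) for Stat5b, 0.39 (DESeq2) and 0.40 (edgeR) for Igfbp1, and -0.026 (equal totals) for Igfbp3. With 1 mouse left out they spanned -0.12 to 0.085 for Ghr, -0.19 to 0.0093 for Stat5a, -0.028 to 0.029 for Stat5b, -0.69 to 0.41 for Igfbp1 and -0.094 to 0.24 for Igfbp4. For Igf1 and Igfbp3, r was -0.013 with TMM factors, -0.028 with equal totals and -0.035 with equal totals without mitochondrial genes, and -0.11 to 0.38 with 1 mouse left out. For Igfals and Igfbp3 it was 0.12 with equal totals and -0.25 to 0.28 with 1 mouse left out. Left-out ranges were -0.30 to 0.40 for Ghr and Socs2, -0.54 to 0.58 for Igfbp1 and Igfbp2, and -0.46 to 0.58 for Igfbp1 and Igf1.

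With a replicate block in limma, 2 axis genes and 3 other pathway genes were called higher and 0 lower, and Egfr gained a call (1.52-fold). Under equal totals the median of all tested genes was -0.0988 in place of -0.0083 (log2). At 4 mice per group, intervals of the axis genes reached from -0.19 to 0.18 for the steadiest gene, Stat5b, to -1.40 to 1.16 for Igfbp1, and differences inside them could not be shown.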
